A study of Mus musculus with 30 samples.

Results

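Matrix metalloproteinases (MMPs), the secreted ADAMTS proteinases and the tissue inhibitors of metalloproteinases (TIMPs) were followed across tumours of 10 mouse lines. Members were taken by gene symbol alone, as every numbered Mmp, Adamts and Timp gene in the table, which gave 46 of 55291 symbols: 23 MMPs, 19 ADAMTS and 4 TIMPs. The 30 libraries were RNA-seq of subcutaneous tumours, 3 per line, and all carried the same label of CD45+ infiltrating immune cells. The lines were MC38OVA and MC38 (colon carcinoma with and without ovalbumin), LL2 (Lewis lung carcinoma), EMT6 (mammary carcinoma), Renca (a renal carcinoma), CMS5a (a fibrosarcoma), CT26NYESO1 and CT26 (colon carcinoma with and without human NY-ESO-1), and the melanoma sublines B16F10 and B16F1. Hosts were BALB/cJ or C57BL/6J mice and tumours were taken at 10 mm. OK-432, a killed streptococcal preparation, was put into tumours of some mice for 24 h. The labels tie neither strain nor OK-432 to a library, so neither was used as a group. Nor do they call the replicates separate animals, so p-values measure only the spread between these samples.

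MMPs are zinc endopeptidases that are made as inactive precursors and, once activated, cut collagens, gelatin, elastin, proteoglycans and many secreted signals. ADAMTS enzymes carry a thrombospondin-type tail that holds them in the matrix, where some trim procollagens and others cut aggrecan and versican. TIMPs bind the active site of most MMPs, and TIMP3 also that of several ADAMTS enzymes. In tumours, MMP transcripts are known from fibroblasts, macrophages and neutrophils as well as from cancer cells, and in bulk RNA fewer cells of a type and less RNA per cell cannot be told apart.

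Values are normalised transcript abundances (TPM), a level per length and per library made by the authors, and sequencing depth is unknown. Libraries held between 12065 and 14602 genes at 1 TPM or more, mitochondrial transcripts took 9.17% to 39.0% of TPM, and replicates correlated at r = 0.950 to 0.994 across genes, which are not independent. The CD45 gene Ptprc was found in every library, from 2.7 TPM in a B16F10 library to 215 TPM in an MC38OVA library. Markers of other cells were present too, and the extraction protocol describes digested whole tumours. The summed TPM of 10 fibroblast markers spanned 4492 to 5768 in CMS5a and 7.84 to 22.6 in B16F10. The 5 melanocyte markers summed to 8799 to 12703 TPM in B16F10 and 1376 to 6466 TPM in B16F1. The label therefore does not describe all the RNA in these libraries.

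Of 10 members that lie together on chromosome 9, 8 hold the same short promoter element. They include Mmp3, the member with the widest difference between lines, and Mmp7, listed at 0 in all 30 libraries. The cluster spans 427 kb, from 7272514 to 7699585 on chromosome 9 of mm10 (GENCODE M21), in the order Mmp13, Mmp12, Mmp1b, Mmp3, Mmp1a, Mmp10, Mmp8, Mmp27, Mmp20 and Mmp7. The element searched was TGANTCA, the letters that AP-1 factors are known to bind, which read the same on both strands. RefSeq windows (GRCm38.p6) of 250 bases before a transcript start were available for 32 of the 46 members. TGANTCA stood in such a window of 8 of the 10 clustered genes, of 0 of the 22 other members in the table, and of 7.82% of all 27025 genes. Counted per window, 6.75% of 32851 held it. Clustered MMPs are paralogs and are not independent examples. The 120 bases before the start of the 8 clustered genes that were tested are shown in chromosome order, 5′ to 3′, because Mmp3, Mmp10, Mmp12, Mmp13 and Mmp27 give many of the calls described next. Capitals mark TGANTCA, and Mmp12 is shown for the second of its RefSeq starts, since the first window had no match.
Mmp13, chr9:7272394-7272513, strand plus: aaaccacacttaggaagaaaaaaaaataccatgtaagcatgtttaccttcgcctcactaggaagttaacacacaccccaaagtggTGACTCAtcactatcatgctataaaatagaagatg
Mmp12, chr9:7347254-7347373, strand plus: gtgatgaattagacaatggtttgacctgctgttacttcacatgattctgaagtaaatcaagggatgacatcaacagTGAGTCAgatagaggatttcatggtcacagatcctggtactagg
Mmp1b, chr9:7388027-7388146, strand minus: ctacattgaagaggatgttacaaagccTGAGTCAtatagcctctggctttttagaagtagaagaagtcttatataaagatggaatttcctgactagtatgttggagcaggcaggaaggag
Mmp3, chr9:7445702-7445821, strand plus: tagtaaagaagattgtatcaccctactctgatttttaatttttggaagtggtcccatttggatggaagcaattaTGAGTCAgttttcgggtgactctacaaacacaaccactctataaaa
Mmp1a, chr9:7464021-7464140, strand plus: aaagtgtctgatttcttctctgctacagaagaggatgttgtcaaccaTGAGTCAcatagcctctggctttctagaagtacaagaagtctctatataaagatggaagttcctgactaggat
Mmp10, chr9:7502222-7502341, strand plus: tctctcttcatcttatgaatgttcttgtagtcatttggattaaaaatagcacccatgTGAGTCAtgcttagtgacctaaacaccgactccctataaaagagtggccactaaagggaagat
Mmp8, chr9:7558309-7558428, strand plus: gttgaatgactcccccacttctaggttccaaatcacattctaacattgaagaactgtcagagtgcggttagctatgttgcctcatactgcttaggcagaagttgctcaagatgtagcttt
Mmp27, chr9:7571276-7571395, strand plus: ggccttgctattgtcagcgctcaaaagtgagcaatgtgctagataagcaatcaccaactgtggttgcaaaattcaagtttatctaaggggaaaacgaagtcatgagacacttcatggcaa

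The element began 35 bases before the start of Mmp13, 44 before that of Mmp12, 46 before that of Mmp3, 63 before that of Mmp10, 73 before that of Mmp1a and 93 before that of Mmp1b. Mmp20 and Mmp7, too low to be tested, also held it, 95 bases before the start of Mmp20 and 63 before the first start of Mmp7. In Mmp8 and Mmp27 these letters were not in the window, and their line means spanned 3.35 and 3.87 (log2). A match is a run of letters and was not tested for binding.

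A gene was tested when it reached 1 TPM in at least 3 libraries. This held for 32 members (18 MMPs, 11 ADAMTS and 3 TIMPs) and for 17944 genes in all. Each gene was fitted with limma as log2(TPM + 1), which understates changes of low genes, and was called when its adjusted p (Benjamini-Hochberg) was under 0.05 with a difference of at least 1 on that log2 scale. An F test over the 10 lines called 32 of the 32, against 85.5% of all genes tested. A member that passed the filter only through the line where it is high had to differ, and the members' count is read only against that share. The distance between the highest and lowest line had a median of 3.37 over the members and 1.71 over all genes tested (log2).

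**Figure D1:**
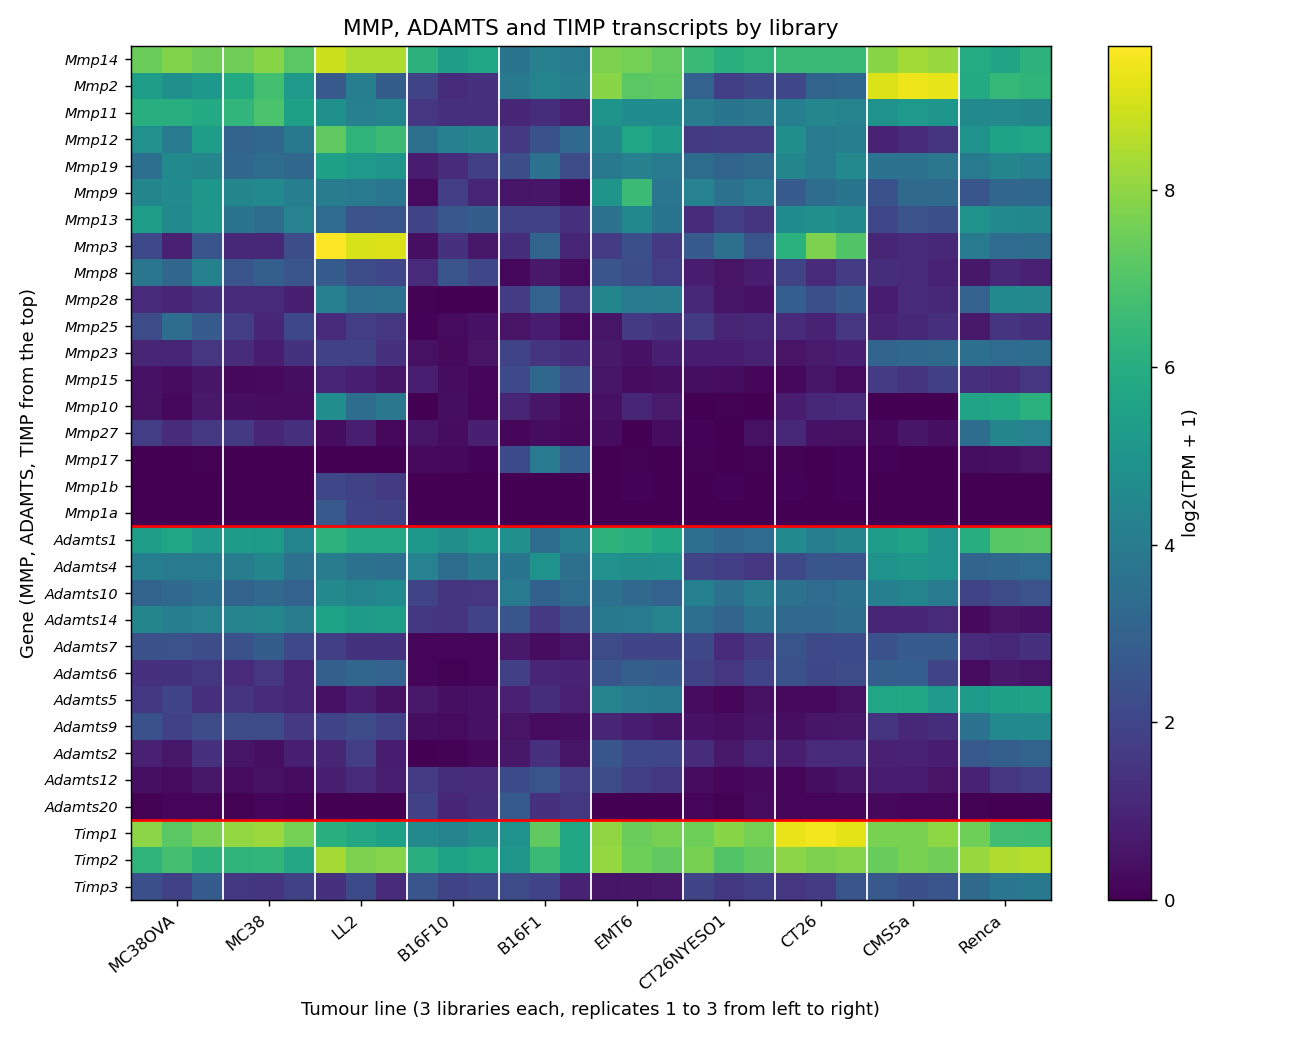
Each row is a tested member and each column a library, in groups of 3 per line. Colour gives log2(TPM + 1), and red lines part MMPs, ADAMTS and TIMPs. Mmp3 is bright in LL2 and CT26, Mmp2 in CMS5a and EMT6, and most rows are dark in B16F10 and B16F1.

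Summed over all 23 MMPs, LL2 had the highest level at 1252 ± 276 TPM (SD, n = 3 for this and the sums that follow). CMS5a followed at 962 ± 94.9 TPM, then EMT6 at 531 ± 85.6, MC38OVA at 420.4 ± 13.0, MC38 at 401 ± 117, Renca at 363 ± 44.2 and CT26 at 336 ± 69.8 TPM. CT26NYESO1 had 134 ± 19.4 TPM, B16F10 87.4 ± 8.53 and B16F1 70.6 ± 24.9 TPM. Neighbours in the middle of this order, such as MC38OVA and MC38 or Renca and CT26, differed by less than their spread. The largest contributor was Mmp14 in 5 lines, Mmp2 in 3 lines and Mmp3 in 2 lines: Mmp3 made up 49.9% of the sum in LL2, and Mmp2 made up 63.5% in CMS5a.

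ADAMTS sums were lower. Their mean was highest in Renca, with libraries at 130.2, 229.5 and 240.3 TPM, and lowest in CT26NYESO1 at 43.7 ± 8.37 TPM. Renca overlapped LL2, at 173.3, 143 and 144.3 TPM, as well as EMT6 and CMS5a. Adamts1 led in 8 lines, Adamts5 in CMS5a and Adamts10 in CT26NYESO1. TIMP sums ran from 872 ± 37.8 TPM in CT26 to 81.8 ± 11.4 TPM in B16F10, with Timp1 leading in 7 lines and Timp2 in LL2, Renca and B16F10. On mm10, Mmp14 lies at 54431612 to 54445364 on chromosome 14, Mmp2 at 92827291 to 92853420 on chromosome 8, Adamts5 at 85856173 to 85901828 on chromosome 16, Adamts14 at 61197112 to 61273438 on chromosome 10 and Timp1 at 20870166 to 20874735 on chromosome X (GENCODE M21). The order of the 3 mean sums was thus not the same: LL2 led for MMPs, Renca, with overlap, for ADAMTS and CT26 for TIMPs.

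**Figure D2:**
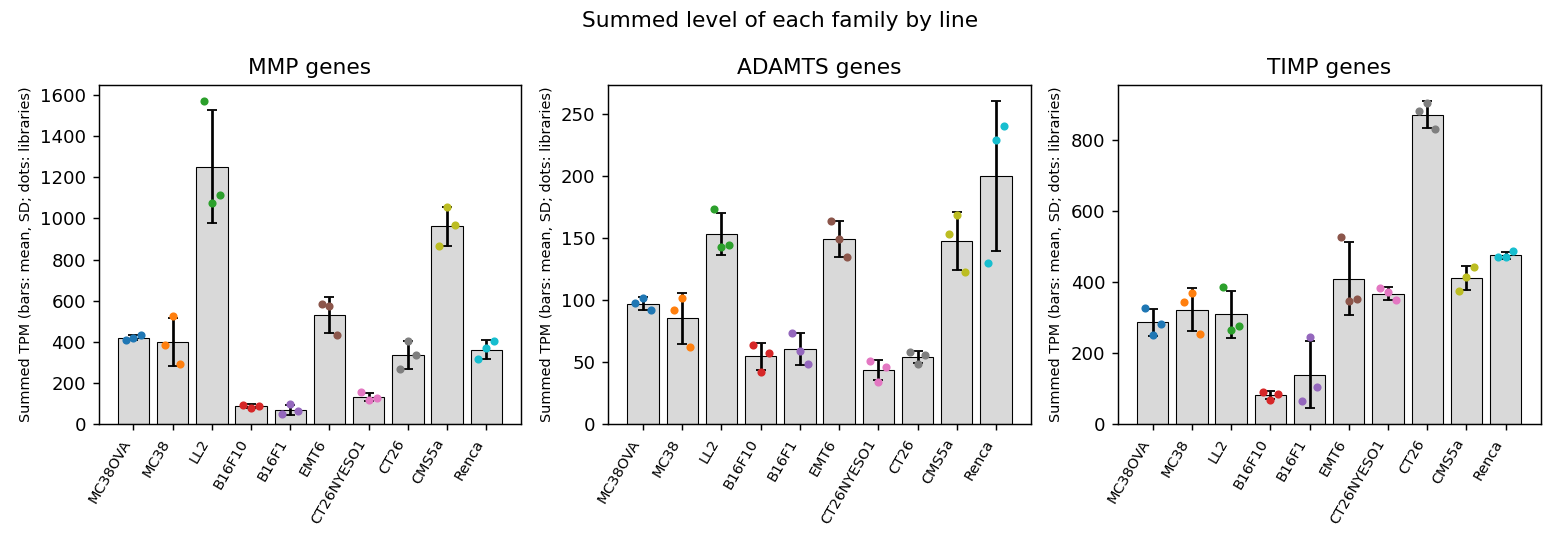
Summed TPM of all MMP, ADAMTS and TIMP genes by line; points are libraries and bars are means of 3. LL2 and CMS5a stand highest for MMPs at 1252 and 962 TPM, and CT26 for TIMPs at 872 TPM.

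Among the stromelysins, Mmp3, which cuts proteoglycans, fibronectin and pro-MMPs, had the widest range of all members, 8.47 on the log2 scale (adjusted p = 6.29e-15, limma F test). LL2 libraries had 785.9, 530.3 and 557.5 TPM. Every other library was lower, with CT26 next at 68.9, 211 and 128 TPM, and the 27 others ran from 0.310 to 211 TPM with a median of 3.34. Mmp10, its closest paralog, took a different order: Renca had 48.6, 54.0 and 69.0 TPM, LL2 25.4, 9.96 and 13.5 TPM, and no other library passed 1.24 TPM. In CMS5a, Mmp10 was listed at 0 in all 3 libraries. Mmp3 and Mmp10 are alike in sequence, so their levels may share reads. Mmp11, a stromelysin activated inside the cell by furin, was highest in MC38 at 79.8, 119 and 43.6 TPM and in MC38OVA at 64.7, 65.2 and 57.6 TPM, and lowest in B16F1 at 1.05, 1.38 and 0.821 TPM.

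Collagenases were split between lines. Mmp13, which cuts fibrillar collagens, had 41.5, 22.6 and 31.1 TPM in MC38OVA, 24.7, 27.5 and 22.9 TPM in CT26, and 29.99, 23.0 and 21.6 TPM in Renca. These 3 lines overlapped, and CT26NYESO1 stood at the low end with 1.36, 2.43 and 1.74 TPM. Mmp8, the collagenase stored in neutrophil granules, had 12.7, 8.02 and 17.9 TPM in MC38OVA, above every other library (highest 6.44 TPM in MC38). Mmp1a and Mmp1b, the mouse counterparts of interstitial collagenase, were found in LL2: Mmp1a had 5.44, 2.79 and 2.75 TPM there and Mmp1b 3.16, 2.65 and 2.14 TPM. Outside LL2, Mmp1a was listed at 0 in 26 of 27 libraries and reached 0.0236 TPM in a CT26 library. Mmp1b was listed at 0 in 23 of those 27 and reached 0.0777 TPM. Both are close copies that may share reads, and GENCODE lists Mmp1a as a polymorphic pseudogene.

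Mmp12, the macrophage elastase, was highest in LL2 at 152, 76.2 and 96.0 TPM, against 0.927 to 51.3 TPM (median 14.4) in the 27 others. CMS5a was below all other libraries with 0.927, 1.28 and 1.76 TPM. Mmp12 and Mmp1b overlap by 1261 bases on opposite strands and the use of strand in quantification is not stated, so their reads cannot be told apart there. Mmp27, a little-studied relative, was a Renca transcript in these data, with 10.2, 19.7 and 18.3 TPM there and at most 2.38 TPM elsewhere.

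**Figure D3:**
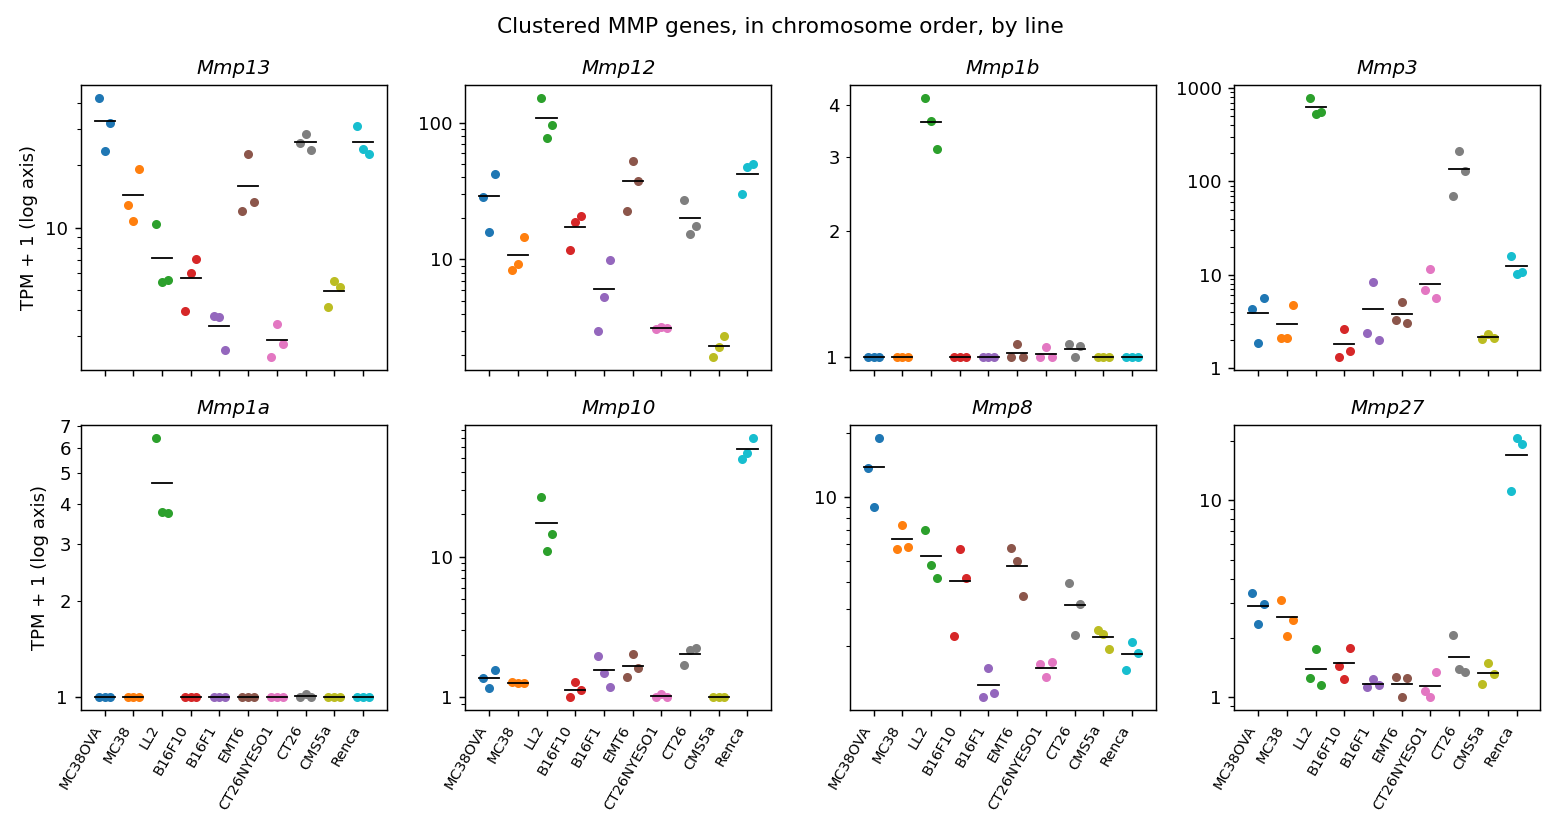
TPM + 1 on a log axis for the 8 tested genes of the chromosome 9 cluster, in chromosome order; points are libraries and black lines means of 3. LL2 stands alone for Mmp3, Mmp1a and Mmp1b, while Renca stands alone for Mmp27 and is highest for Mmp10.

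The gelatinases, which cut denatured collagen and basement membrane collagen, differed in where they were high. Mmp2 had 558.9, 665.5 and 608.4 TPM in CMS5a, above all other libraries, and 239, 143 and 149 TPM in EMT6. It was lowest in B16F10 at 2.89, 1.30 and 1.60 TPM, and CT26, CT26NYESO1 and LL2 libraries stayed at or under 16.2 TPM. Its range over lines was 7.74 (log2; adjusted p = 7.38e-16, limma). Mmp9, stored in neutrophil granules and also made by macrophages, had 30.3, 94.1 and 12.5 TPM in EMT6. These EMT6 libraries spread widely and overlapped MC38OVA, at 20.4, 23.7 and 32.9 TPM, and MC38.

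Membrane-anchored MMPs included the most abundant MMP in 5 lines. Mmp14, which activates pro-MMP2 at the cell surface, had 467, 342 and 347 TPM in LL2 and 240.5, 311 and 283 TPM in CMS5a. The lowest were B16F1 libraries at 12.1, 17.2 and 15.1 TPM, below every other library. Mmp17, held at the membrane by a lipid anchor, went the other way: B16F1 had 3.42, 14.9 and 6.32 TPM, and no other library passed 0.406 TPM. Mmp15, a transmembrane relative of Mmp14, was likewise highest in B16F1 at 3.33, 8.57 and 4.25 TPM, against at most 2.52 TPM elsewhere. Mmp25, the lipid-anchored MMP known from leukocytes, had 3.56, 9.89 and 5.79 TPM in MC38OVA, above every other library.

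Among the remaining MMPs, Mmp19, expressed by many tissues, had 44.3, 35.8 and 32.3 TPM in LL2, above all others, and 0.689, 1.31 and 2.42 TPM in B16F10, below all others. Mmp28, known as epilysin from skin and testis, was high in EMT6 at 20.3, 14.5 and 15.6 TPM and in Renca at 7.08, 23.2 and 22.0 TPM. It was listed at 0 in 2 of the 3 B16F10 libraries. Mmp23, a small membrane-bound MMP, was highest in Renca at 10.4, 9.29 and 10.2 TPM and in CMS5a at 7.70, 8.22 and 8.91 TPM, which did not overlap each other or any other line.

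The proteoglycan-cutting ADAMTS enzymes did not share an order. Adamts5, the main aggrecanase of mouse cartilage, had 49.7, 53.3 and 35.6 TPM in CMS5a, 36.6, 42.9 and 45.3 TPM in Renca, and 18.8, 14.9 and 13.9 TPM in EMT6. CMS5a and Renca overlapped each other, while every library of the other 7 lines lay at or under 3.06 TPM. Adamts1, the most abundant ADAMTS here, had its highest mean in Renca at 62.0, 139 and 143 TPM, which overlapped LL2 (up to 73.3 TPM). Its lowest mean was in CT26NYESO1 at 10.5, 8.53 and 9.26 TPM, which overlapped B16F1 (down to 9.49 TPM). Adamts4, the other well-known aggrecanase, had 29.7, 33.4 and 29.9 TPM in CMS5a and 2.96, 2.46 and 1.88 TPM in CT26NYESO1, the top and bottom of all lines. Adamts9, which cuts versican and aggrecan, was a Renca transcript at 11.7, 22.7 and 23.5 TPM, against at most 4.33 TPM in any other library. Adamts20, known for a role in mouse melanoblasts, was found mainly in the melanoma lines. It had 2.71, 1.05 and 1.40 TPM in B16F10 and 5.68, 1.62 and 1.93 TPM in B16F1, with at most 0.217 TPM in the other 24 libraries.

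Procollagen N-propeptidases, which trim the ends of fibrillar procollagens, also parted. Adamts14 had 46.5, 37.2 and 41.0 TPM in LL2, above all others, and 0.172, 0.429 and 0.403 TPM in Renca, below all others. Adamts2 went against it in Renca, where it was highest at 5.40, 6.56 and 7.41 TPM. It was lowest in B16F10 at 0.0163, 0.0449 and 0.159 TPM. Set against the other lines, both genes were called lower in B16F10 and higher in EMT6. Adamts3, the third of this group, did not pass the filter and had 0.659, 0.861 and 0.792 TPM in LL2, against at most 0.0387 TPM elsewhere.

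Of the inhibitors, Timp1, a broadly induced secreted inhibitor, had 632.8, 691.0 and 592 TPM in CT26. All other libraries were lower, at up to 287 TPM, and B16F10 was the lowest at 21.8, 18.9 and 25.9 TPM. Timp2, which also helps Mmp14 activate pro-MMP2, had 281, 356 and 374 TPM in Renca and ran down to 33.2 TPM in a B16F1 library. Timp3, the matrix-bound inhibitor, was highest in Renca at 9.04, 12.9 and 13.9 TPM and lowest in EMT6 at 0.471, 0.513 and 0.585 TPM, where it lay below every other library. Timp4 did not pass the filter and reached 0.425 TPM, in B16F1.

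**Figure D4:**
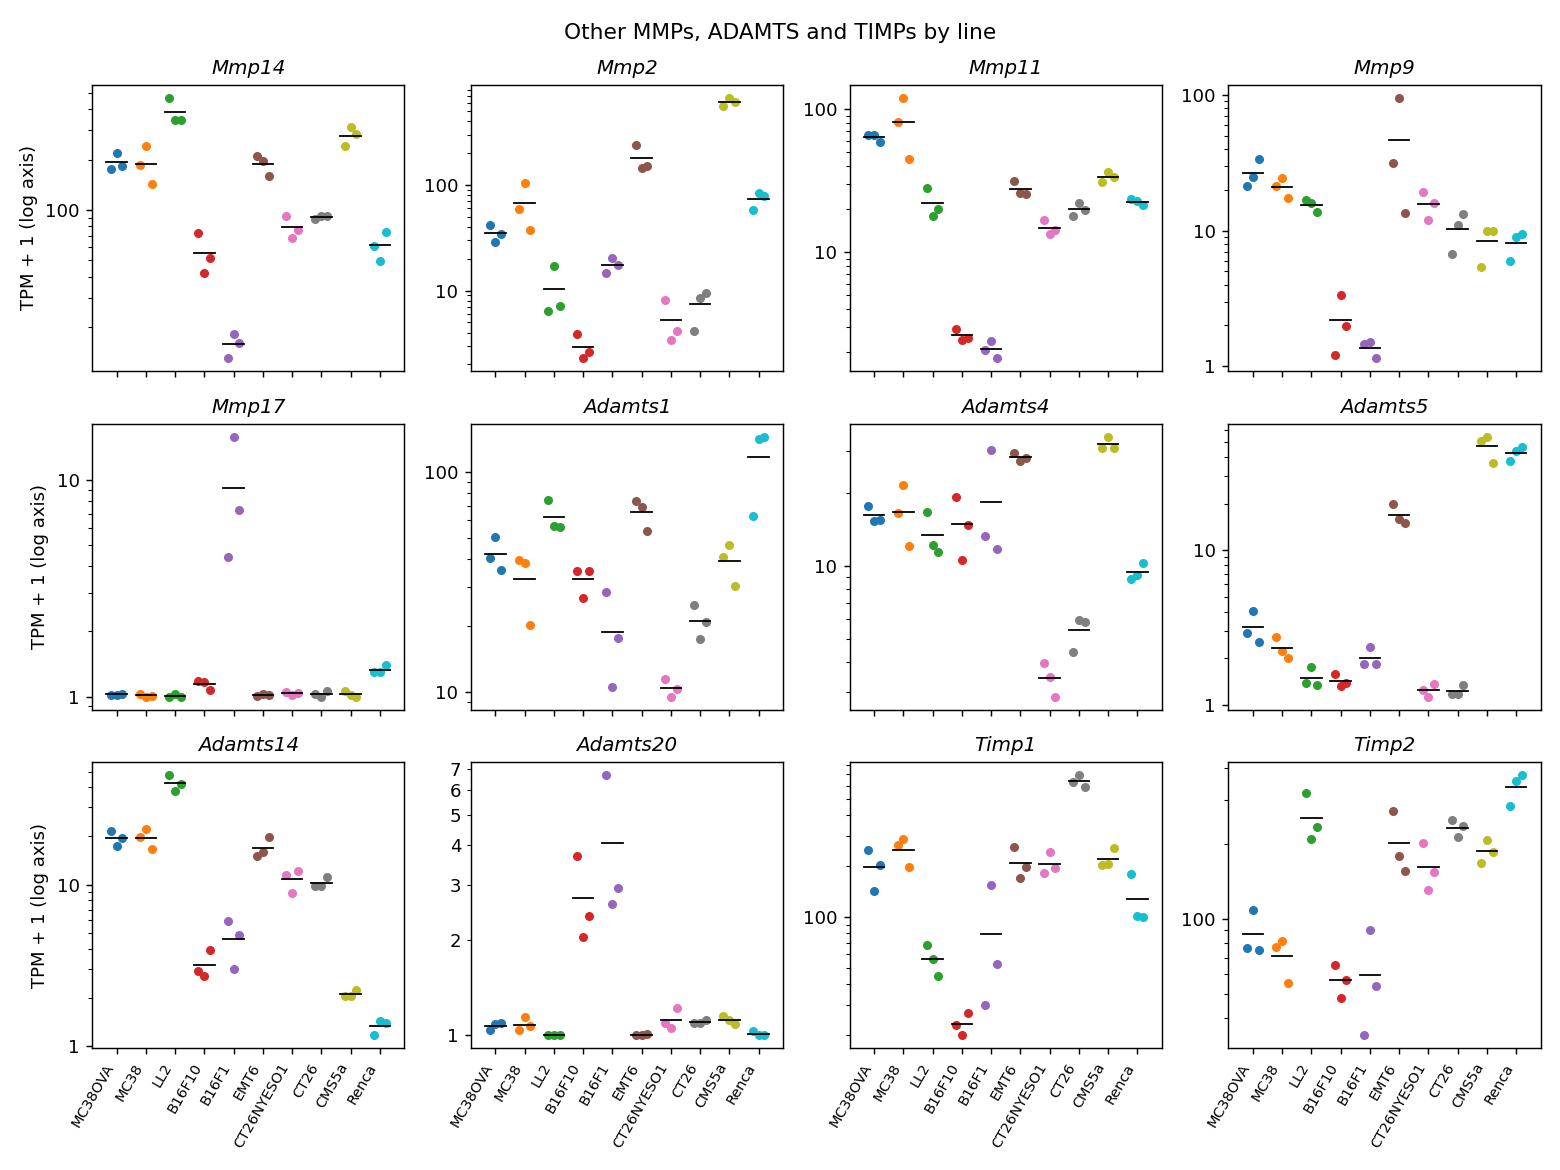
TPM + 1 on a log axis for further MMPs, ADAMTS and TIMPs by line; points are libraries and black lines means of 3. Mmp2 stands highest in CMS5a, Timp1 in CT26, Adamts14 in LL2, Mmp17 in B16F1 and Adamts20 in the B16 sublines.

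The 14 untested members were low throughout. Those above 1 TPM in any library were Mmp24, a transmembrane MMP of neurons, at 1.37 TPM in Renca, Adamts16 at 1.29 TPM in Renca, and Adamts15, a versican-cutting enzyme, at 1.08 TPM in CMS5a. Adamts13, which cuts von Willebrand factor, reached 0.716 TPM in B16F10, and Adamts8 reached 0.691 TPM in LL2. The highest values were 0.314 TPM for Mmp16 in Renca, 0.138 TPM for Adamts17 in B16F1, 0.0763 TPM for Adamts19 in LL2 and 0.0604 TPM for Adamts18 in MC38OVA. Mmp20, the enamel-forming MMP, and Mmp21 reached 0.0236 and 0.0437 TPM, both in MC38OVA. Mmp7, the epithelial matrilysin, was listed at 0 in all 30 libraries.

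Each line was then set against the mean of the other 9. LL2 had 11 members higher and 3 lower, where 7.98% of all genes tested were higher and 6.53% lower. The members' median difference was 0.48 and that of all genes -0.06 (log2). Mmp3 rose by 6.79 ± 0.35 (SE; adjusted p = 9.13e-15), Mmp12 by 3.12 ± 0.29 (adjusted p = 1.23e-09), Mmp10 by 2.99 ± 0.17 (adjusted p = 6.82e-14) and Adamts14 by 2.66 ± 0.16 (adjusted p = 1.4e-13). The 11 include Mmp1a and Mmp1b, which passed the filter only through LL2 and so had to differ, which leaves 9, and no fold is given for them. Mmp14, Mmp19, Mmp28, Adamts6 and Adamts10 were higher too, by 1.29 to 1.99. Mmp2 fell by 1.75 ± 0.28, Adamts5 by 1.65 ± 0.15 and Timp1 by 1.47 ± 0.27. Macrophage markers summed to 1685 to 2159 TPM in LL2, against a median of 1058 TPM in the other libraries, with 6 of 8 markers higher. Fibroblast markers summed to 3324 to 4300 TPM, against a median of 735 TPM, with 5 of 10 higher and 2 lower, and 6 of 10 leukocyte markers were higher (1282 to 1572 TPM, against a median of 857 TPM). The part of any of these in these results was not tested.

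CMS5a, the fibrosarcoma, had 6 members higher and 6 lower, where 9.23% of all genes were higher and 4.49% lower, with medians of -0.16 for members and 0.08 for all genes. Mmp2 rose by 4.96 ± 0.28 (adjusted p = 4.17e-14), Adamts5 by 3.87 ± 0.15 (adjusted p = 6.47e-18) and Mmp23 by 1.92 ± 0.15 (adjusted p = 1.94e-11). Mmp14 and Adamts4 rose by 1.48 and 1.45, and Adamts7, which cuts cartilage oligomeric matrix protein, by 1.07. Mmp14 missed the threshold of 1 when B16F1 and B16F10 were left out of the lines averaged, at 0.98. Mmp12 fell by 3.0 ± 0.29 (adjusted p = 2.02e-09), Mmp3 by 2.29 ± 0.35 (adjusted p = 5.77e-06) and Adamts14 by 2.15 ± 0.16 (adjusted p = 9.33e-12). Mmp10, listed at 0, and Mmp13 and Mmp28 were also lower. CMS5a had the highest fibroblast marker sum, with 7 of 10 markers higher, and 6 of 6 endothelial markers were higher (109 to 129.98 TPM, against a median of 17.4 TPM elsewhere). Their part in the result was not tested, and CMS5a cells are of a connective tissue tumour themselves.

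Renca had 13 members higher and 3 lower, where 12.4% of all genes were higher and 10.5% lower (medians 0.48 and -0.15). With the B16 lines left out of the average, 13 were higher and 6 lower. Mmp10 rose by 5.03 ± 0.17 (adjusted p = 2.14e-19), Adamts5 by 3.73 ± 0.15 (adjusted p = 6.08e-18), Mmp27 by 3.43 ± 0.17 (adjusted p = 7.72e-16) and Adamts9 by 3.17 ± 0.16 (adjusted p = 1.29e-15). Mmp28, Mmp23, Adamts2, Timp3, Adamts1, Mmp12, Mmp2, Mmp13 and Timp2 rose by 1.45 to 2.19. Adamts14 fell by 2.89 ± 0.16 (adjusted p = 8.19e-15), and Adamts6 and Adamts10, both known as partners of fibrillin microfibrils, fell by 1.34 and 1.23. Epithelial markers summed to 1323 to 2023 TPM in Renca, against a median of 4.12 TPM elsewhere, with 4 of 5 higher. Endothelial markers summed to 72.6 to 100.3 TPM, against a median of 17.4 TPM, with 4 of 6 higher, and macrophage markers to 1501 to 2259 TPM, against a median of 1058 TPM, with 3 of 8 higher. Of 6 mast cell markers 4 were lower. The part of these cells in the result was not tested.

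EMT6 had 10 members higher and 2 lower, where 10.2% of all genes were higher and 4.70% lower (medians 0.55 and 0.04). The split was 8 higher and 5 lower with the B16 lines left out of the average, and 11 higher and 6 lower with a pseudocount of 0.1. Mmp2 rose by 2.94 ± 0.28 (adjusted p = 1.7e-09), Mmp28 by 2.30 ± 0.25 (adjusted p = 2.11e-08), Adamts5 by 2.24 ± 0.15 (adjusted p = 9.64e-13) and Mmp12 by 1.39 ± 0.29 (adjusted p = 0.00027). Mmp9 rose by 2.02 ± 0.33 (adjusted p = 1.34e-05), a value that 1 library decides in size: it was 1.28 without EMT6 replicate 2 and 2.69 without EMT6 replicate 3. Adamts1, Adamts2, Adamts4, Adamts6 and Adamts14 rose by 1.0 to 1.25. Timp3 fell by 1.54 ± 0.23 (adjusted p = 2.71e-06) and Mmp3 by 1.41 ± 0.35 (adjusted p = 0.00171). Neutrophil markers summed to 1186 to 1644 TPM in EMT6, above every other library (up to 549.5 TPM), with 4 of the 5 tested higher. The list held 10 genes, of which Ly6g, Ngp, Ltf, Camp and Elane did not pass the filter. S100a8 and S100a9 had EMT6 means of 307 and 976 TPM. Fibroblast markers summed to 1741 to 2723 TPM, against a median of 735 TPM elsewhere, with 6 of 10 higher and 2 lower, and epithelial markers to 622 to 712 TPM, against a median of 4.12 TPM, with 3 of 5 higher. The part of these cells in the EMT6 results was not tested.

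MC38OVA had 6 members higher and 1 lower, where 10.2% of all genes were higher and 3.59% lower (medians 0.33 and 0.05). The split was 6 higher and 3 lower with median-ratio scaling, 5 and 4 with the B16 lines left out of the average, 7 and 3 with MC38 left out, 10 and 3 with a pseudocount of 0.1, and 4 and 3 with the mean of the leukocyte markers as a covariate. Mmp8 rose by 2.20 ± 0.22 (adjusted p = 4.92e-09), Mmp11 by 2.03 ± 0.17 (adjusted p = 2.74e-10), Mmp13 by 1.90 ± 0.22 (adjusted p = 5.92e-08) and Adamts14 by 1.40 ± 0.16 (adjusted p = 4.45e-08). Mmp25 rose by 1.71 ± 0.23 (adjusted p = 7.43e-07) and Mmp9 by 1.58 ± 0.33 (adjusted p = 0.00031). Mmp3 fell by 1.48 ± 0.35 (adjusted p = 0.00121), which was not called without MC38OVA replicate 2 (adjusted p = 0.0541). Leukocyte markers summed to 1176 to 2628 TPM in MC38OVA, against a median of 857 TPM elsewhere, with 9 of 10 higher. With their mean as a covariate, Mmp25 had an adjusted p of 0.0906 and Mmp9 of 0.214. With the B16 lines left out of the average, Mmp9 was 0.90 higher and missed the threshold of 1. Neutrophil markers summed to 280 to 549.5 TPM in MC38OVA, against a median of 172 TPM elsewhere, with 4 of the 5 tested higher, and 3 of 6 endothelial markers were higher. The part of these cells in the result was not tested.

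MC38 had 4 members higher and 4 lower, where 8.24% of all genes were higher and 4.06% lower (medians -0.23 and 0.08). The split was 2 higher and 5 lower with the B16 lines left out of the average, and 8 of each with a pseudocount of 0.1. Mmp11 rose by 2.31 ± 0.17 (adjusted p = 2.06e-11) and Adamts14 by 1.41 ± 0.16 (adjusted p = 4.39e-08). Mmp2 and Mmp9 rose by 1.28 ± 0.28 and 1.22 ± 0.33, but by 0.75 and 0.52 with the B16 lines left out of the average, and Mmp2 by 0.90 without MC38 replicate 2. Mmp3 fell by 1.88 ± 0.35 (adjusted p = 9.7e-05), Mmp28 by 1.13, Mmp10 by 1.08 and Timp2 by 1.05, the last by 0.88 without MC38 replicate 3. Neutrophil markers summed to 361 to 412 TPM in MC38, against a median of 172 TPM elsewhere, with 5 of the 5 tested higher. Mast cell markers summed to 4.68 to 10.6 TPM, against a median of 23.1 TPM, with 4 of 6 lower. The part of these cells was not tested.

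CT26 had 3 members higher and 4 lower, where 8.25% of all genes were higher and 4.91% lower. A pseudocount of 0.1 gave 6 higher and 7 lower. Mmp3 rose by 4.22 ± 0.35 (adjusted p = 1.44e-10), Timp1 by 2.44 ± 0.27 (adjusted p = 2.09e-08) and Mmp13 by 1.57 ± 0.22 (adjusted p = 1.2e-06). Mmp2 fell by 2.20 ± 0.28 (adjusted p = 3.38e-07), Adamts5 by 1.95 ± 0.15 (adjusted p = 1.84e-11) and Adamts4 by 1.41 ± 0.20 (adjusted p = 1.98e-06). Adamts9 lay on the threshold with a fall of 1.0 (log2), which any 1 of 13 left-out libraries took below it, to 0.93 without CT26 replicate 1. Mast cell markers summed to 55.4 to 251 TPM in CT26, against a median of 10.6 TPM elsewhere, with 5 of 6 higher, and 3 of 10 fibroblast markers were higher. Their part in the result was not tested.

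CT26NYESO1 had 0 members higher and 10 lower, where 6.84% of all genes were higher and 5.71% lower (medians -0.38 and 0.04). Mmp2 fell by 2.78 ± 0.28 (adjusted p = 6.92e-09), Mmp12 by 2.50 ± 0.29 (adjusted p = 7.19e-08), Adamts4 by 2.14 ± 0.20 (adjusted p = 1.78e-09) and Mmp13 by 1.99 ± 0.22 (adjusted p = 2.51e-08). Adamts1, Adamts5, Adamts9, Mmp8, Mmp10 and Mmp28 were the others. In limma at an unadjusted p under 0.05, with no fold threshold, 4 members were higher and 18 lower, where 25.9% of all genes were higher and 24.1% lower. Mast cell markers summed to 61.9 to 77.9 TPM in CT26NYESO1, against a median of 10.6 TPM elsewhere, with 4 of 6 higher. Endothelial markers summed to 9.31 to 11.9 TPM, against a median of 23.6 TPM, with 3 of 6 lower. Their part in the result was not tested.

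B16F1 had 4 members higher and 14 lower, where 8.52% of all genes were higher and 13.2% lower (medians -0.82 and -0.18). The 4 include Mmp17, which reached 1 TPM in the 3 B16F1 libraries alone, and Adamts20, which reached it in the 6 B16 libraries alone: both had to differ, which leaves 2. The split was 4 higher and 9 lower with the leukocyte covariate, and 4 and 12 with median-ratio scaling. Mmp15 rose by 1.92 ± 0.15 (adjusted p = 2.35e-11) and Adamts12, which like Adamts7 cuts cartilage oligomeric matrix protein, by 1.29 ± 0.15 (adjusted p = 5.55e-08). Mmp11 fell by 3.46 ± 0.17 (adjusted p = 1.72e-15), Mmp9 by 3.16 ± 0.33 (adjusted p = 6.1e-09), Mmp14 by 3.13 ± 0.16 (adjusted p = 2.57e-15) and Mmp13 by 1.75 ± 0.22 (adjusted p = 1.3e-07). In B16F1 10 of 10 leukocyte markers were lower and 5 of 5 melanocyte markers were higher. Of 10 fibroblast markers 8 were lower and 1 was higher. Neutrophil markers summed to 4.66 to 16.1 TPM, against a median of 224 TPM elsewhere, with 5 of the 5 tested lower. The part of these cells was not tested.

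B16F10 had 1 member higher and 19 lower, where 5.28% of all genes were higher and 23.2% lower (medians -1.18 and -0.48). Mmp2 fell by 3.64 ± 0.28 (adjusted p = 1.54e-11), Mmp11 by 3.09 ± 0.17 (adjusted p = 1.96e-14), Timp1 by 2.89 ± 0.27 (adjusted p = 4.24e-10) and Mmp19 by 2.63 ± 0.22 (adjusted p = 7.55e-11). The member higher was Adamts20, which passed the filter through the B16 libraries alone and so had to differ, which leaves 0. No fold is given for it, and its call was lost without B16F10 replicate 1 and with the leukocyte covariate. Median-ratio scaling moved the median of all genes by 0.50 in this line and raised the share of calls that were higher to 40.7%, against 18.6% in TPM as deposited. Scaled, 1 member was higher and 16 were lower, with Mmp2 at -3.235, Mmp11 at -2.68, Timp1 at -2.32 and Mmp19 at -2.24. In B16F10 10 of 10 fibroblast markers, 8 of 8 macrophage markers and 9 of 10 leukocyte markers were lower, and 5 of 5 melanocyte markers were higher. The other leukocyte marker, Arhgdib, was higher, at 420, 341 and 426 TPM, and it is part of the mean used as the leukocyte covariate. The part of these cells in the falls was not tested.

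The antigen-carrying line of each colon carcinoma was then set against its parent. CT26NYESO1 had 0 members higher and 6 lower than CT26, where 0.379% of all genes were higher and 1.89% lower. Mmp3 had 5.80, 10.6 and 4.67 TPM in CT26NYESO1, against 68.9, 211 and 128 TPM in CT26, a fall of 4.02 ± 0.47 (log2; limma adjusted p = 1.08e-06). Mmp13 had 1.36, 2.43 and 1.74 TPM in CT26NYESO1, against 24.7, 27.5 and 22.9 TPM in CT26, a fall of 3.21 ± 0.29 (adjusted p = 9.89e-09). For both genes the lines were far apart and their libraries did not overlap. Mmp12 had 2.08, 2.21 and 2.16 TPM in CT26NYESO1, against 26.4, 14.4 and 16.5 TPM in CT26, and fell by 2.63 ± 0.39 (adjusted p = 4.03e-05). Mmp28 fell by 1.97 ± 0.34 (adjusted p = 0.000302) and Timp1 by 1.64 ± 0.36 (adjusted p = 0.00442), again without overlap. Mmp19 fell by 1.06 ± 0.30 (adjusted p = 0.0327), a call that was lost with any of 5 of the pair's 6 libraries left out, with adjusted p up to 0.154. At an unadjusted p under 0.05 in limma, with no fold threshold, 0 members were higher and 13 lower, where 5.42% of all genes were higher and 8.76% lower. Mmp14, at 91.3, 67.5 and 75.4 TPM in CT26NYESO1 and 87.8, 90.8 and 91.6 TPM in CT26, overlapped and was not called. Fibroblast markers summed to 735 to 1072 TPM in CT26NYESO1 and 1346 to 1390 TPM in CT26, with 2 of 10 lower, and their part was not tested.

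MC38OVA had 3 members higher and 0 lower than MC38, where 1.14% of all genes were higher and 0.167% lower. Mmp13 had 41.5, 22.6 and 31.1 TPM in MC38OVA, against 11.9, 9.79 and 18.3 TPM in MC38, a rise of 1.19 ± 0.29 (adjusted p = 0.0288). Mmp25 had 3.56, 9.89 and 5.79 TPM in MC38OVA, against 2.38, 1.02 and 3.27 TPM in MC38, a rise of 1.18 ± 0.31 (adjusted p = 0.0416). Mmp8 had 12.7, 8.02 and 17.9 TPM in MC38OVA, against 4.73, 6.44 and 4.85 TPM in MC38, a rise of 1.08 ± 0.29 (adjusted p = 0.0497). The libraries of these lines did not overlap for these 3 genes, but the calls lay close to the threshold. At an unadjusted p under 0.05 in limma, with no fold threshold, 7 members were higher and 1 lower, where 8.21% of all genes were higher and 2.99% lower. Leaving out 1 library gave between 0 and 4 called members, and none of the 3 was called with median-ratio scaling, a pseudocount of 0.1, the leukocyte covariate or a fit of the pair's 6 libraries alone. Leukocyte markers summed to 1176 to 2628 TPM in MC38OVA and 616 to 1081 TPM in MC38. Their median difference was 1.10 (log2), with 1 of 10 called higher. That of 8 macrophage markers was 1.17, with 1 called higher. The part of these cells was not tested. Mmp12, at 27.8, 14.9 and 41.1 TPM in MC38OVA and 7.39, 8.26 and 13.7 TPM in MC38, was 1.36 higher with an adjusted p of 0.0626 and was not called.

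The difference between these pairs was tested as a term of its own. A set of 6 members was called, each more positive in the ovalbumin pair, where 2.22% of all genes were more positive and 0.396% more negative. They were Mmp13 (4.40 ± 0.41, adjusted p = 4.35e-08), Mmp3, Mmp12, Mmp28, Mmp8 and Mmp19. At an unadjusted p under 0.05 in limma, 13 members were more positive and 0 more negative, where 9.98% of all genes were more positive and 4.70% more negative. Within the pairs Mmp13 was lower in CT26NYESO1, while its call in MC38OVA was lost under the alternatives named above for that pair. Mmp3, Mmp12, Mmp28 and Mmp19 were called lower in CT26NYESO1 than in CT26 and were not called in MC38OVA against MC38. Mmp8 was called in the MC38 pair only, and that call was lost under the same alternatives.

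B16F10 was set against B16F1, a less metastatic subline of the same melanoma. It had 3 members higher and 9 lower, where 4.53% of all genes were higher and 16.4% lower, and 5 higher and 8 lower with median-ratio scaling, which moved the median of all genes by 0.33 and the share of calls that were higher to 41.4%, against 21.7% as deposited. With a pseudocount of 0.1 it had 3 higher and 15 lower. Mmp14 had 72.2, 41.1 and 50.9 TPM in B16F10, against 12.1, 17.2 and 15.1 TPM in B16F1, a rise of 1.79 ± 0.21 (adjusted p = 1.26e-07). Mmp12 had 10.8, 17.9 and 19.9 TPM in B16F10, against 1.99, 4.30 and 8.85 TPM in B16F1, a rise of 1.63 ± 0.39 (adjusted p = 0.0013). Mmp8 rose by 1.53 ± 0.29 (adjusted p = 0.000131), and the libraries of the sublines did not overlap for any of these 3 genes. Of the 5 neutrophil markers tested 2 were higher in B16F10 and 0 lower. They were uneven between libraries, with S100a9 at 3.05, 132 and 28.3 TPM in B16F10. Their part in the rises was not tested.

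Among the falls, Mmp17 had 0.174, 0.168 and 0.0689 TPM in B16F10, against 3.42, 14.9 and 6.32 TPM in B16F1. It passed the filter only through B16F1 and so had to differ, which leaves 8 of the 9. Mmp2 had 2.89, 1.30 and 1.60 TPM in B16F10, against 13.7, 19.5 and 16.4 TPM in B16F1, a fall of 2.60 ± 0.38 (adjusted p = 3.12e-06). Mmp15 fell by 2.16 ± 0.20 (adjusted p = 1.84e-09), Mmp28 by 2.08 ± 0.34 (adjusted p = 1.64e-05) and Adamts10 by 1.79 ± 0.23 (adjusted p = 4.22e-07). Mmp19, Mmp23 and Adamts6 fell by 1.46, 1.17 and 1.16. Timp1, at 21.8, 18.9 and 25.9 TPM in B16F10 and 29.1, 154 and 51.8 TPM in B16F1, fell by 1.44 ± 0.36 (adjusted p = 0.00185), but by 0.79 without B16F1 replicate 2, the highest of its line, and with an adjusted p of 0.0547 under median-ratio scaling. Fibroblast markers summed to 7.84 to 22.6 TPM in B16F10 and 87.1 to 274 TPM in B16F1, with 8 of 10 lower, and 7 of 8 macrophage markers were lower. Their part in the falls was not tested.

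**Figure D5:**
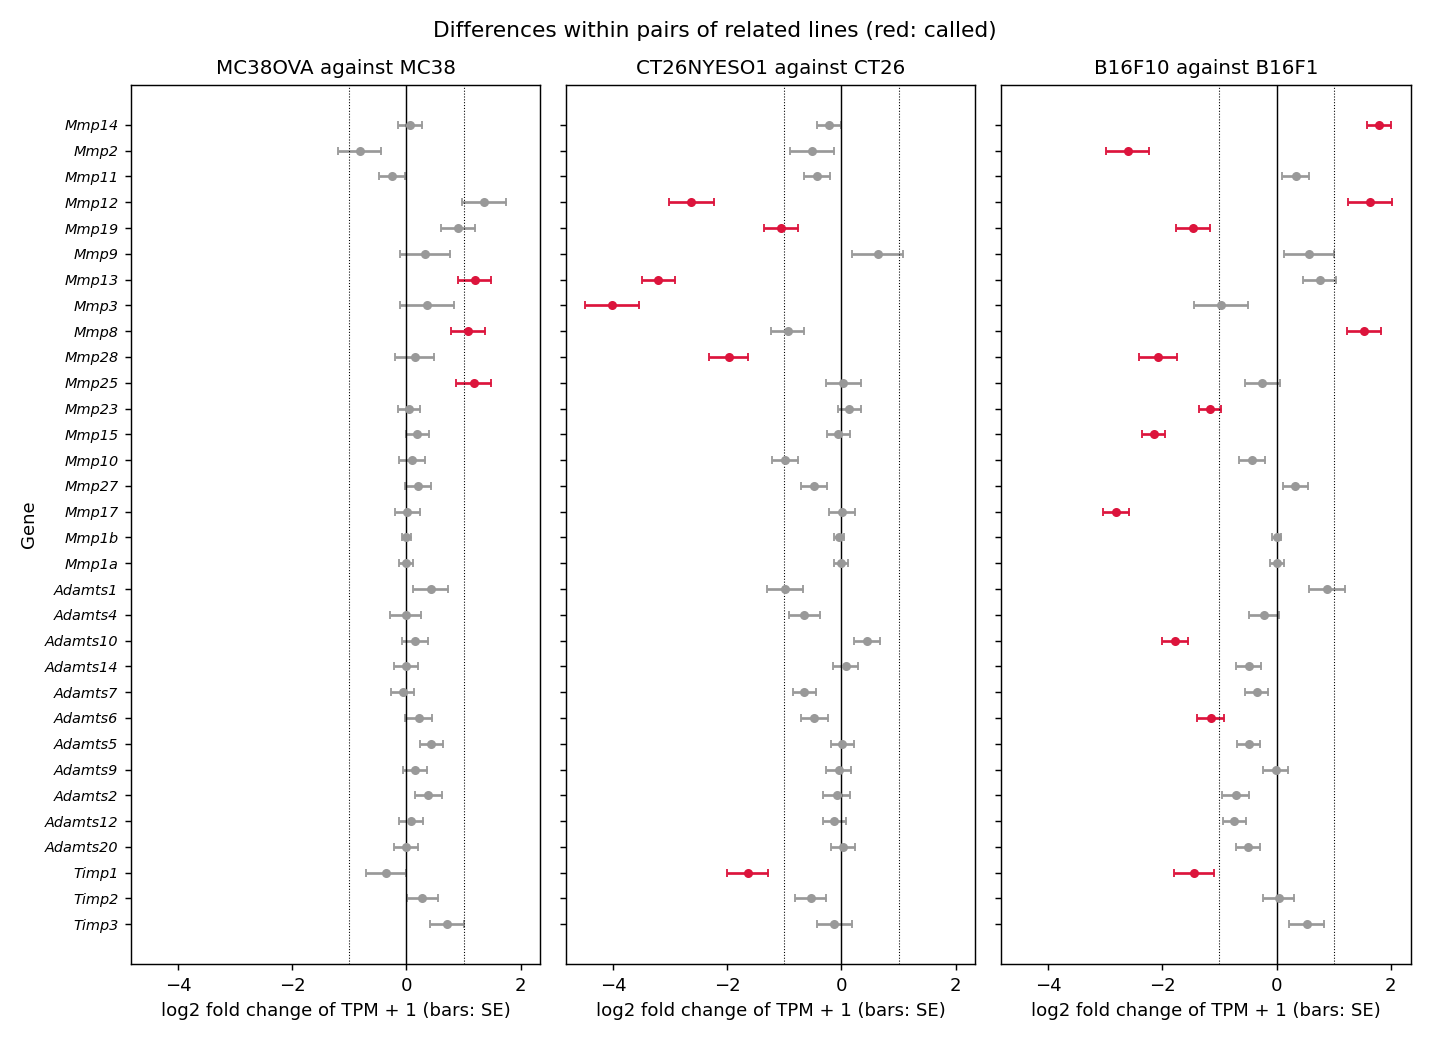
Difference in log2(TPM + 1) for every tested member in MC38OVA against MC38, CT26NYESO1 against CT26 and B16F10 against B16F1. Points are limma estimates, bars are 1 SE, and red marks called members: 3, 6 and 12 from left to right.

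Genes that act with these enzymes also differed between lines, by the same tests. All tested genes of 5 lists differed over the 10 lines: 9 ADAM proteinases, 7 ADAMTS-like proteins, 9 activators, inhibitors and binding partners, 6 genes of the plasminogen system and 8 matrix substrates, against the 85.5% given above. Among the substrates, 7 of 8 were higher in LL2, where 7.98% of all genes tested were higher. In B16F10 8 of 8 were lower, where 23.2% of all genes were lower. EMT6 had 2 substrates higher and 4 lower, and B16F1 1 higher and 2 lower. Versican (Vcan), a proteoglycan cut by ADAMTS enzymes, had 197, 158 and 155 TPM in LL2, against 0.200, 0.436 and 0.574 TPM in B16F10. Tenascin C (Tnc), a matrix glycoprotein cut by several MMPs, had its highest mean in Renca at 69.5, 104 and 107 TPM, which overlapped LL2 (up to 88.4 TPM). Spp1, the secreted phosphoprotein osteopontin, had 45.3, 98.0 and 77.0 TPM in B16F10, below every other library.

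Plasminogen genes, whose product plasmin activates pro-MMPs, were higher in EMT6 for 4 of 6 tested and lower for 1. In B16F10, 5 of 6 were lower and 0 higher. Of all genes tested, 10.2% were higher and 4.70% lower in EMT6, and 5.28% were higher and 23.2% lower in B16F10. Plat, tissue plasminogen activator, had 140, 202.5 and 232 TPM in Renca and 136, 118 and 114 TPM in EMT6. Serpine2, an inhibitor of such proteases, had 107, 232 and 163 TPM in B16F1, against 0.131, 0.269 and 0.615 TPM in B16F10.

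Of the binding partners, Lcn2, which forms a complex with MMP9, had 101, 68.3 and 90.1 TPM in Renca, above all others. Reck, a membrane-anchored MMP inhibitor, had 9.90, 11.8 and 8.04 TPM in CMS5a and 0.0817, 0.0840 and 0.0668 TPM in EMT6. Lrp1, a receptor that takes up MMPs and TIMPs, was highest in LL2 at 204, 188 and 220.0 TPM. Adam33 had 62.0, 65.4 and 77.5 TPM in CT26NYESO1 and 49.2, 28.5 and 33.1 TPM in CT26, with at most 2.29 TPM in the other lines, and Thsd4, an ADAMTS-like protein that binds fibrillin, was also largely found in these lines, at 13.5, 7.93 and 12.7 TPM in CT26NYESO1 and 16.6, 15.6 and 15.0 TPM in CT26. Adam12, a proteinase of mesenchymal cells, was highest in B16F10 at 52.8, 26.1 and 19.0 TPM. Adam8, a leukocyte proteinase, had its highest mean in EMT6 at 160, 210 and 144 TPM, which overlapped MC38OVA (up to 174 TPM) and LL2 (up to 158 TPM). Adamtsl3 led in LL2 at 33.9, 22.9 and 24.3 TPM, and Adamtsl5, which binds heparin and fibrillin, in Renca at 50.7, 61.4 and 56.3 TPM.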

How the data were processed

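RNA-seq values of 30 libraries were analysed as deposited. TPM were made by the authors: per the submitters' processing notes, with Trim Galore 0.6.5, STAR 2.7.3a, StringTie 2.1.2 and mm10. The annotation, and whether strand was used in quantification, are not given in the sources used here. Each library sums to 1000000 TPM, which leaves sequencing depth unknown and gives no counting intervals. The table had 0 duplicated symbols, 0 identical libraries and 0 unmapped columns.

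Every gene that reached 1 TPM in 3 libraries was fitted on the log2(TPM + 1) scale by limma 3.58.1 under R 4.3.3 (variance trend, 1 mean per line, 20 residual degrees of freedom) and adjusted over all 17944 genes within each comparison. Calls needed an adjusted p under 0.05 and a difference of at least 1 (log2). Errors of differences are SE of the fit. Sums and figures used Python 3.11.15, numpy 2.4.6, pandas 2.3.3 and matplotlib 3.10.9. The fit was tested on simulated data.

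Members and lists were chosen with earlier results of these data known. Named were the 20 members with the widest range over lines and every Timp, up to 5 rises and 4 falls per line, every called member of a pair, each untested member and up to 3 genes per other list, of which 1 is not reported here; further members are given for their family. Alternatives were no fold threshold, no filter, median-ratio scaling, a smaller pseudocount (0.1), omission of each library or of the related line, the mean of 10 leukocyte markers as a covariate, replicate number as a block, and a fit of a pair's 6 libraries. Leaving B16F1 and B16F10 out of the lines averaged was chosen after seeing the data. Promoter windows are from RefSeq (GRCm38.p6) and matched 32 of 46 members by symbol.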

Additional observations from a re-analysis of the deposited data

Results flagged for a closer look

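Differences between the antigen-carrying and parental lines were compared between the MC38 and CT26 families, and 6 members passed the test of that difference. Each value is MC38OVA minus MC38, less CT26NYESO1 minus CT26, in log2(TPM + 1), with its SE and limma adjusted p. Mmp13 differed by 4.40 ± 0.41 (adjusted p = 4.35e-08), being 1.19 higher in MC38OVA than in MC38 and lower by 3.21 in CT26NYESO1 than in CT26. The MC38OVA side of this was not called with median-ratio scaling (adjusted p = 0.0611), a pseudocount of 0.1 (0.084), the leukocyte covariate (0.47) or the pair's 6 libraries alone (0.338). Mmp3 differed by 4.38 ± 0.67 (adjusted p = 0.000136) and Mmp12 by 3.99 ± 0.55 (adjusted p = 2.84e-05). Mmp28 differed by 2.12 ± 0.48 (adjusted p = 0.0102), Mmp8 by 2.02 ± 0.41 (adjusted p = 0.00436) and Mmp19 by 1.97 ± 0.42 (adjusted p = 0.00605). With the leukocyte covariate, Mmp28 and Mmp19 were not called (adjusted p = 0.103 and 0.0635). Mmp3, Mmp12, Mmp28 and Mmp19 were called within the CT26 pair, as falls, and not within the MC38 pair. Mmp8 was called within the MC38 pair only.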

How the results depend on the processing

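No called member named changed sign under any alternative run. Without the fold threshold the called members were 22 in MC38, 21 in MC38OVA, 26 in EMT6, 22 in LL2, 17 in CT26, 19 in CT26NYESO1, 23 in CMS5a and 26 in Renca, each against the other 9 lines, where 8, 7, 12, 14, 7, 10, 12 and 16 passed both thresholds; of all genes tested, 41.6% to 60.8% were called without it in these lines. A pseudocount of 0.1 gave 16 in MC38, 13 in MC38OVA and 13 in CT26. MC38OVA against MC38, with 3 called, gave 0 with a pseudocount of 0.1, 1 with no filter, 0 with median-ratio scaling, 0 with the leukocyte covariate, 0 in the fit of 6 libraries and 0 to 4 when 1 library was left out. The cause was not tested. Mmp8 in that pair was lost without any 1 of 22 libraries, and Mmp13 and Mmp25 without any 1 of 5. Mmp19 in CT26NYESO1 against CT26 was also lost with a pseudocount of 0.1, no filter or scaling, and Mmp12, Mmp19 and Timp1 in B16F10 against B16F1 in the fit of 6 libraries, which has fewer samples. Median-ratio scaling moved the median of all genes by -0.14 in MC38, EMT6 and CMS5a, -0.11 in CT26NYESO1 and 0.15 in B16F1.

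Same-numbered replicates did not deviate together in every pair of libraries (r = -0.112, -0.122 and 0.164 for the MC38 lines, 0.0421, 0.281 and -0.110 for the CT26 lines, 0.421, 0.136 and 0.00247 for the B16 lines). Each deviation was taken from the mean of only 3 libraries, so these values cannot settle whether the numbers pair them. The numbers were not used as pairs in the main fit. With replicate number as a block the called members were 32 over the lines and 3, 6 and 12 in the MC38, CT26 and B16 pairs. In MC38OVA against MC38 only 2 of the 3 were shared: Mmp8 was lost under the block (adjusted p = 0.0645) and Mmp12 gained (1.36 higher, adjusted p = 0.0494). In the other comparisons the block called the same members.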
